A study of Mus musculus with 18 samples.

Results

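The core circadian clock genes were followed in mouse tail tendon fibroblasts (TFs) as the 10 genes *Arntl*, *Clock*, *Npas2*, *Per1*, *Per2*, *Per3*, *Cry1*, *Cry2*, *Nr1d1* and *Dbp*, taken by symbol from the 55491 rows of the count table. All 10 were found once and all 10 passed the filter on low counts. RNA was sequenced from 18 libraries in 6 groups of 3: Ctrl and cKO TFs in 20% O2 (normoxia) or 1% O2 (hypoxia), and Ctrl TFs given Cre gesicles, which are vesicles that carry Cre recombinase into cells, in 20% or 1% O2. The cKO TFs were *Hif1a* flox/flox;*Scx*Cre, with the gene of the hypoxia-inducible factor HIF-1α floxed. Their Cre was constitutive and driven from the *Scleraxis* promoter, which is active in tendon cells but not in them alone. The Ctrl TFs were Cre-negative cells from the same breeding, which the labels call wild-type and which carry floxed *Hif1a* alleles by the study's methods. All TFs came from mice of both sexes aged 4 to 6 months, on a mixed C57BL6J/129S1 background, grew out of tail tendon through collagen gel and were kept for 4 days at the stated O2 level. The labels give 10% serum and the methods give 1%. Each culture was collected at a single time and the hour of collection is not given in the sources used here, so a difference in the level of a clock gene and a difference in the phase of its rhythm cannot be told apart.

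In the mammalian clock, the activators ARNTL (also called BMAL1) and CLOCK, or its paralog NPAS2, pair and bind E-box motifs to switch on the *Per* and *Cry* genes, whose proteins return to the nucleus and repress the pair. A second loop runs through the nuclear receptors REV-ERB, encoded by *Nr1d1* and *Nr1d2*, and ROR, which repress and activate *Arntl* transcription. DBP is an output factor that carries the rhythm to D-box genes, and fibroblasts, tendon fibroblasts among them, run this clock cell by cell, each in its own phase unless a medium change or another cue sets them together.

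The sequences just upstream of the transcription start are given for *Arntl*, *Cry1* and *Ciart*, which are only some of the clock genes that differed with O2 in the results that follow. The first 2 are a core activator and a core repressor, and *Ciart* encodes CHRONO, a further repressor of the ARNTL and CLOCK pair. They are RefSeq windows of 250 bases in build GRCm38.p6, written 5′ to 3′ on the strand of the gene, with the E-box CACGTG and the letters ACGTG, the core of the site bound by hypoxia-inducible factors, in capitals. The *Arntl* window lies at chr7:113207215-113207464 on the plus strand, the *Cry1* window at chr10:85185055-85185304 on the minus strand and the *Ciart* window at chr3:95882229-95882478 on the minus strand.
Arntl: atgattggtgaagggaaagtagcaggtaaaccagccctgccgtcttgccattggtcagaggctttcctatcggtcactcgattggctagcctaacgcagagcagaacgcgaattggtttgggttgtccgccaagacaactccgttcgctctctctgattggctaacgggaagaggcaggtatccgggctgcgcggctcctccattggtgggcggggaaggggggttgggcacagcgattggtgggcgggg
Cry1: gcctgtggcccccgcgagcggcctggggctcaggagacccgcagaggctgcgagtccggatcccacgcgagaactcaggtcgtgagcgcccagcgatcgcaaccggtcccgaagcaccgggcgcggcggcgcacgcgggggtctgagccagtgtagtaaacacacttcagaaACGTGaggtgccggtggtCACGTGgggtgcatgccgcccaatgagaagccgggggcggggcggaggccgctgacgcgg
Ciart: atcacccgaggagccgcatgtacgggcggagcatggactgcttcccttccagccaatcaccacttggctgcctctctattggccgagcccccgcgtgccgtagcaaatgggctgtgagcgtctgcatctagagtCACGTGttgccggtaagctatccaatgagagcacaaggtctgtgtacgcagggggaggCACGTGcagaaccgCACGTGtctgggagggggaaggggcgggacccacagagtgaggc
The *Ciart* window holds 3 E-boxes, which begin 116, 58 and 44 bases before the start. The *Cry1* window holds 1, which begins 60 bases before the start, and a separate ACGTG that begins 78 bases before it. The *Arntl* window holds neither motif on either strand. Among clock genes not shown that also differed with O2, *Bhlhe41* and *Tef*, which fell, had an E-box in each window. *Rora*, which rose, had ACGTG without an E-box, and *Arntl2* and *Nfil3*, which rose, had neither motif. Whether these motifs bear on the O2 differences was not tested. Every CACGTG also contains ACGTG, and among all 32851 promoter windows searched, 6.02% held CACGTG and 16.6% held ACGTG in these 250 bases. RefSeq windows were matched for 9 of the 10 core genes, with *Per2* the one left out, and besides *Cry1* only *Per1* of those 9 had an E-box in such a window, which begins 166 bases before the start.

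Library totals ranged from 6857558 to 51806453 counts, and the shallow end was a single library, cKO in 1% O2 replicate 1. The floor of 3 counts corresponded to 0.0579 to 0.437 CPM (counts scaled to library size with TMM factors), the unit of the levels given here. *Hif1a* itself was at 287 to 507 CPM over all libraries and cKO TFs differed from Ctrl TFs by 0.09 on the log2 scale (SE 0.11, edgeR adjusted p = 0.605), but a count over the whole gene includes exons outside the floxed part, so it does not check the deletion. Genes that HIF is known to induce, 10 of them, all rose in 1% O2 when the 3 arms were averaged (edgeR adjusted p under 0.05), with a median log2 fold change of 2.08. The tendon fibroblast markers were present in each library, *Scx* at 6.17 to 20.9 CPM and *Tnmd* at 35.4 to 212 CPM, whereas *Ptprc*, *Emcn*, *Krt14*, *Myod1* and *Ckm*, defining markers of leukocytes, endothelium, keratinocytes and muscle, stayed at or under 0.164 CPM. Other genes of those lists were higher, with *Tek* at 11.3 to 75.6 CPM, *Cd14* at 6.27 to 16.0 CPM, *Des* at 1.72 to 7.48 CPM, and *Cd68* and *Csf1r* up to 2.65 and 2.34 CPM. Libraries also differed in how well long, GC-poor transcripts were counted. The length and GC index used here was the median log2 level of 1137 such transcripts minus that of 1138 short, GC-rich ones. Each level was taken relative to the gene's mean over libraries, with the clock genes left out, and the index ran from -0.72 to 0.31.

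Read per kilobase of the longest annotated transcript, which allows genes to be compared, the order of levels over the 18 libraries was *Nr1d1* (25.9 CPM per kb), *Cry2* (18.9), *Dbp* (13.3), *Arntl* (13.0), *Cry1* (6.06), *Clock* (4.19), *Per3* (1.496), *Per2* (1.28), *Per1* (0.895) and *Npas2* (0.186). The REV-ERBα gene was thus the most abundant of the 10 and the *Per* genes, the most rhythmic repressors in most tissues, were near the bottom. The order of neighbours held in all 18 libraries for *Nr1d1* over *Cry2*, *Arntl* over *Cry1*, *Clock* over *Per3* and *Per1* over *Npas2*. *Dbp* was above *Arntl* in 8 of 18 libraries and *Per3* above *Per2* in 12, so these neighbours changed order between libraries. The order of *Cry2* over *Dbp*, *Cry1* over *Clock* and *Per2* over *Per1* held in 16, 16 and 15. *Npas2*, the CLOCK paralog, was covered by only 5 to 87 counts per library, so its folds are imprecise. *Nr1d1* varied least, by 1.47-fold between its lowest and highest library, and *Cry1* by 1.49-fold. *Per2* varied most, by 6.93-fold, with its lowest value of 1.64 CPM in the shallow library, where it had 12 counts.

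**Figure D1:**
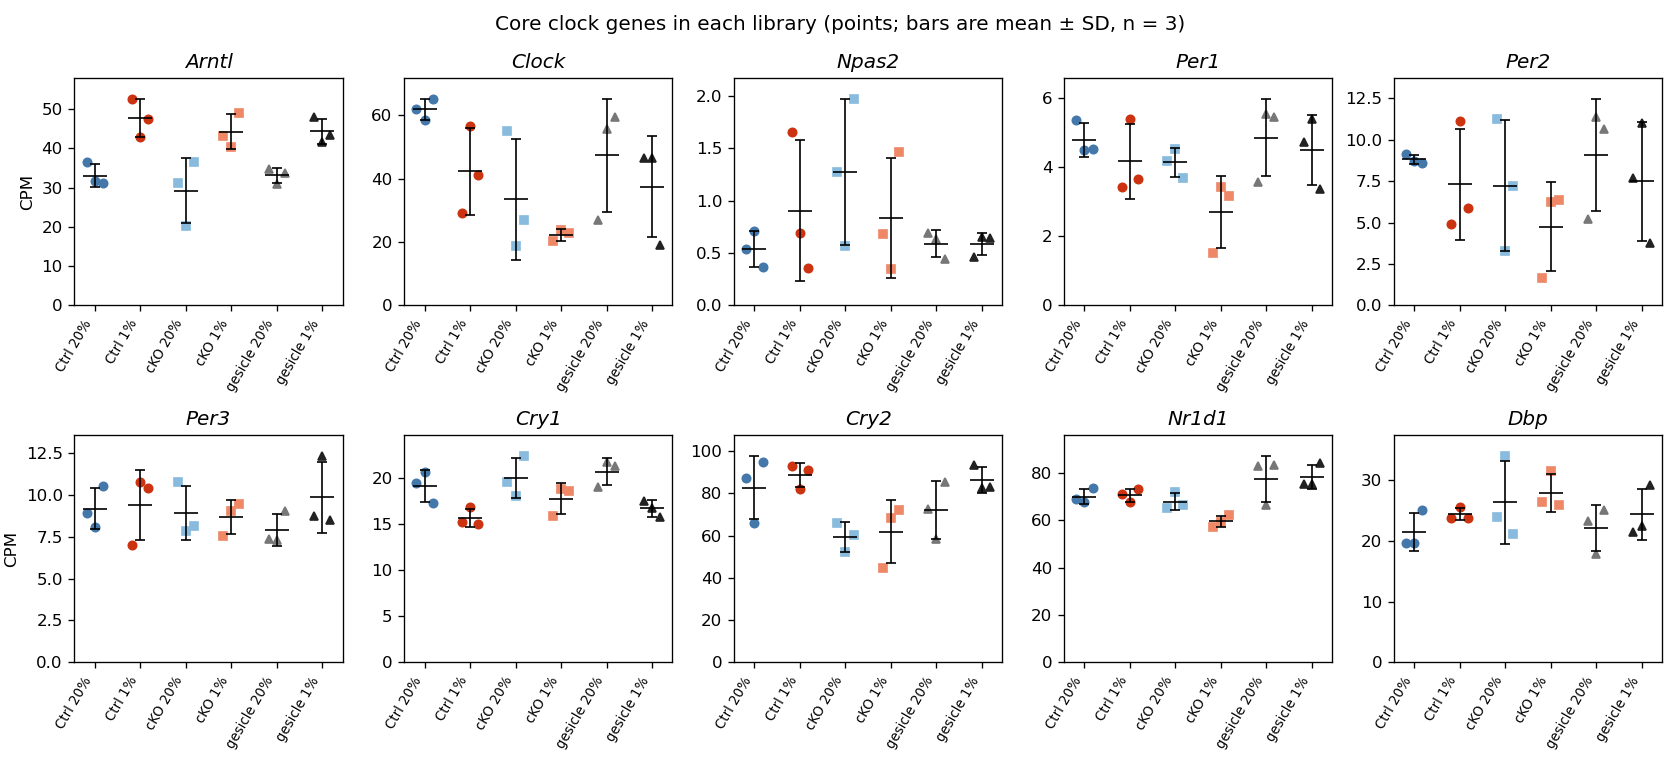
CPM of the 10 core clock genes in each of the 18 libraries, with the 6 groups on the x axis, a point per library and bars for the mean ± SD of 3 libraries. *Arntl* sits higher in each 1% O2 group than in its 20% O2 partner, whereas the *Clock* and *Per2* points spread widely within groups.

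ARNTL is the partner that both CLOCK and NPAS2 need. In Ctrl TFs, *Arntl* (chr7:113207465-113314126, GRCm38) was at 36.5, 31.6 and 31.2 CPM in 20% O2 and at 52.6, 43.0 and 47.6 CPM in 1% O2. In cKO TFs it was at 31.1, 20.2 and 36.6 CPM in 20% O2 and at 43.2, 40.4 and 49.1 CPM in 1% O2. In gesicle-treated Ctrl TFs it was at 34.7, 31.0 and 33.9 CPM in 20% O2 and at 47.9, 41.6 and 43.4 CPM in 1% O2. Every one of the 9 libraries in 1% O2 thus lay above every one of the 9 in 20% O2, whose highest value was 36.6 CPM. The share of all genes apart in this pooled way was not computed. By the looser rule of groups apart within each of the 3 arms, in the same direction, the share was 6.75%. Same-numbered untreated and gesicle-treated Ctrl libraries deviated alike from their group means (r 0.438 to 0.645 in 20% and 0.272 to 0.397 in 1% O2). The 9 libraries of an O2 level therefore need not stand for 9 separate mice. Averaged over the 3 arms, *Arntl* rose by 0.51 on the log2 scale in 1% O2 (SE 0.10, 1.43-fold, edgeR adjusted p = 0.0014), and it passed the adjusted p of 0.05 in all 25 alternative analyses, at log2 fold changes of 0.44 to 0.56. A rise of 1.43-fold is below the 1.5-fold that a call needed. Within an arm the rise was 0.54 in Ctrl (SE 0.18, edgeR adjusted p = 0.176), 0.60 in cKO (SE 0.18, adjusted p = 0.111) and 0.41 in gesicle-treated TFs (SE 0.17, adjusted p = 0.204), so no single arm passed in the main test. Some alternatives did pass. In cKO TFs *Arntl* was called with DESeq2 (adjusted p = 0.0494) and with offsets for GC content and length, chosen after the data were seen, plus the replicate block (adjusted p = 0.0442). It passed, under the fold minimum, in gesicle-treated TFs with a block within genotype, also chosen after the data were seen (adjusted p = 0.0451), and with offsets plus block (adjusted p = 0.0334), and in Ctrl TFs in 1 of 20 alternatives, the edgeR fit without cKO 20% O2 replicate 2 (adjusted p = 0.0349). The rise did not differ detectably between genotypes (interaction 0.06 on the log2 scale, SE 0.26) or with gesicles (-0.12, SE 0.23).

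*Clock* (chr5:76209868-76304792) encodes the usual ARNTL partner. In Ctrl TFs it was at 62.0, 58.5 and 65.1 CPM in 20% O2 and at 29.2, 56.6 and 41.1 CPM in 1% O2. In cKO TFs it was at 55.0, 18.7 and 26.8 CPM in 20% O2 and at 20.3, 23.8 and 22.9 CPM in 1% O2. With gesicles it was at 26.9, 55.6 and 59.5 CPM in 20% O2 and at 46.7, 46.7 and 19.0 CPM in 1% O2. Untreated Ctrl TFs in 20% O2 were tight and high and cKO TFs in 1% O2 tight and low, and the other 4 groups ran over a range of libraries that were high and low. The averaged O2 difference was -0.49 (SE 0.23, edgeR adjusted p = 0.124) and did not pass. Across the 18 libraries *Clock* moved closely with the length and GC index (Pearson r 0.934, and 0.929 after group means were removed), and its longest transcript of 9744 bases at 40.9% GC is long and GC-poor. These libraries share depth and base composition, so that correlation is a description and no p is given. With the GC and length offsets the averaged O2 difference was -0.19 (adjusted p = 0.258).

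**Figure D2:**
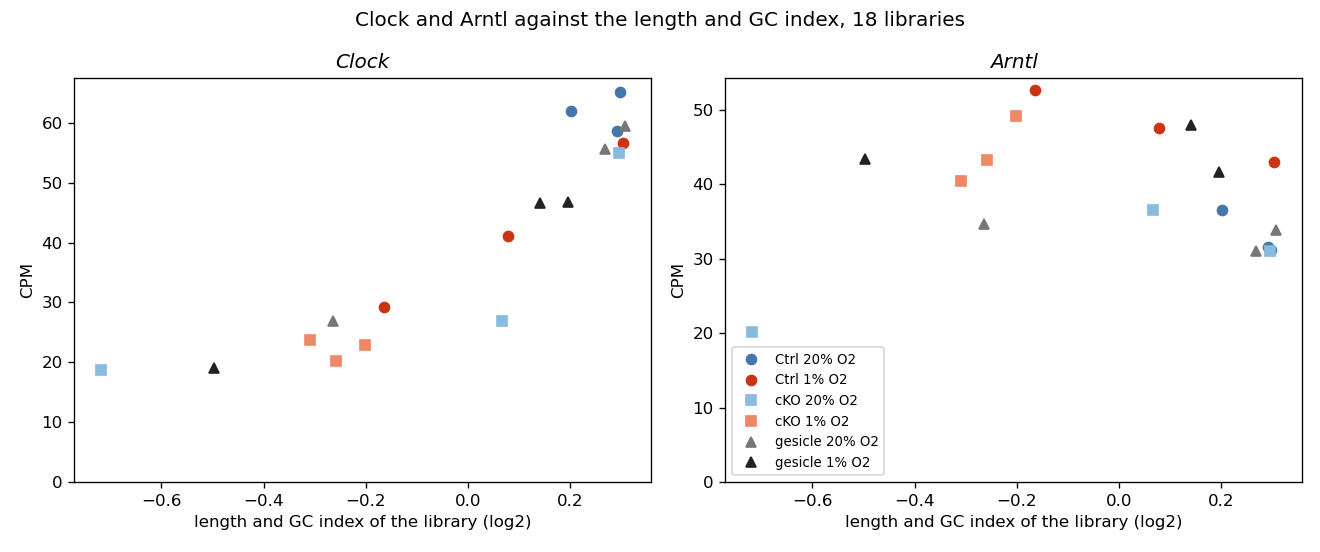
CPM of *Clock* (left) and *Arntl* (right) against the length and GC index of each of the 18 libraries, in log2 units, with symbols for the 6 groups. *Clock* is higher in libraries with a higher index (r 0.934). For *Arntl*, r was 0.0684 over the 18 libraries and 0.408 after group means were removed. The mean index was lower in 1% than in 20% O2 in each arm.

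*Npas2* was at 0.348 to 1.97 CPM, and its averaged O2 difference of 0.05 (SE 0.33, edgeR adjusted p = 0.933) changed sign with the library left out. Its mean level was 0.537 ± 0.17 CPM (SD, n = 3) in Ctrl TFs in 20% O2 and 1.27 ± 0.70 CPM in cKO TFs in 20% O2, and these groups overlapped.

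Of the repressors, *Cry1* (chr10:85131700-85185064), whose cryptochrome is a strong inhibitor of the ARNTL and CLOCK pair, fell a little in 1% O2. Ctrl TFs had 19.4, 20.7 and 17.3 CPM in 20% O2 against 15.3, 16.8 and 15.0 CPM in 1% O2. Gesicle-treated TFs had 19.0, 21.8 and 21.3 CPM against 17.6, 16.8 and 15.8 CPM. In both of these arms the O2 groups did not overlap, whereas in cKO TFs the values of 19.6, 18.1 and 22.4 CPM in 20% O2 overlapped the 15.9, 18.8 and 18.6 CPM in 1% O2. The averaged difference was -0.26 on the log2 scale (SE 0.07, 1.19-fold, edgeR adjusted p = 0.0121), and it passed in 24 of 25 alternatives, the exception being the fit without a filter on low counts (adjusted p = 0.0858). With GC and length offsets it was -0.24 (adjusted p = 0.0067). The cKO and Ctrl responses of *Cry1* did not differ detectably (interaction 0.11, SE 0.19).

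*Cry2*, the second cryptochrome gene, was at 87.1, 65.9 and 94.8 CPM in Ctrl TFs in 20% O2 and at 92.7, 82.1 and 91.2 CPM in 1% O2. Its averaged O2 difference was 0.14 (SE 0.10, edgeR adjusted p = 0.334). It passed without a call where GC and length offsets were used (0.25, adjusted p = 0.0464), and so did *Per3*, which went from 0.10 (SE 0.12, adjusted p = 0.547) to 0.33 (adjusted p = 0.013).

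The *Per* genes encode the PERIOD proteins that carry the cryptochromes into the nucleus, and *Per1* and *Per2* also respond acutely to serum and glucocorticoids. *Per1* was at 5.35, 4.48 and 4.50 CPM in Ctrl TFs in 20% O2 and at 3.42, 5.39 and 3.66 CPM in 1% O2. In cKO TFs *Per1* was at 4.18, 4.52 and 3.68 CPM in 20% O2 and at 1.51, 3.42 and 3.15 CPM in 1% O2, groups that did not overlap, although the lowest value rests on 11 counts of the shallow library. *Per2* was at 9.13, 8.73 and 8.61 CPM in Ctrl TFs in 20% O2 but at 4.94, 11.1 and 5.88 CPM in 1% O2. None of the 3 passed: the averaged O2 difference was -0.30 for *Per1* (SE 0.16, edgeR adjusted p = 0.178) and -0.36 for *Per2* (SE 0.28, adjusted p = 0.37). *Per2* also moved with the length and GC index (r 0.818, n = 18 libraries), and with the offsets the differences of *Per1* and *Per2* were -0.15 and -0.14. *Per3* stayed between 6.98 and 12.3 CPM in all libraries, and it lies within *Camta1* on the same strand.

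*Nr1d1* (chr11:98767932-98775333), which encodes the repressor of *Arntl* in the second loop, did not pass the test for O2 in any arm. Ctrl TFs had 68.8, 67.6 and 73.4 CPM in 20% O2 and 71.2, 67.5 and 73.0 CPM in 1% O2. The averaged O2 difference was -0.06 (SE 0.06, edgeR adjusted p = 0.489), which with that SE is the most precise value among the 10 genes. cKO TFs had 65.0, 72.1 and 66.5 CPM in 20% O2 and 57.2, 59.1 and 62.1 CPM in 1% O2, lower without overlap but not past the test (-0.19, SE 0.10, adjusted p = 0.31). It shares 1075 bases with *Thra* on the opposite strand, and whether counting used strand is not given in the sources used here.

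*Dbp*, a direct output of the ARNTL and CLOCK pair, was at 19.6, 19.6 and 25.01 CPM in Ctrl TFs in 20% O2 and at 23.8, 25.4 and 23.8 CPM in 1% O2. The averaged O2 difference was 0.13 (SE 0.11, edgeR adjusted p = 0.384). *Dbp* moved against the length and GC index (r -0.722, n = 18 libraries), and its gene overlaps *Sphk2* on the opposite strand by 737 bases.

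**Figure D3:**
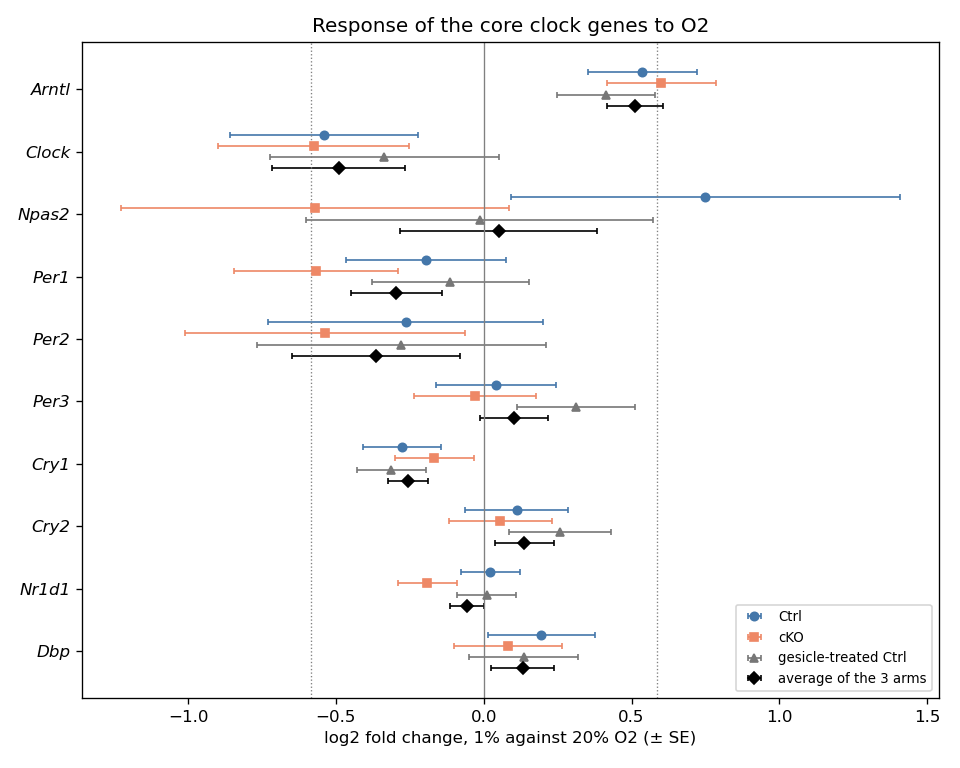
Log2 fold change of each core clock gene in 1% against 20% O2 (x axis, ± SE from edgeR) in Ctrl, cKO and gesicle-treated Ctrl TFs and in the average of the 3 arms, with dotted lines at a 1.5-fold change. *Arntl* lies to the right of 0 and *Cry1* to the left in every arm, and the other 8 averages did not pass the adjusted p of 0.05.

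With edgeR as the main test, none of the 10 core genes was called in 1% against 20% O2, and *Arntl* in cKO TFs was called by DESeq2 and with GC and length offsets plus the replicate block. A call needed both a 1.5-fold change and an adjusted p under 0.05. Of all genes tested, 1.88% were called in Ctrl, 2.1% in cKO and 2.41% in gesicle-treated TFs, and 10.5% in the average of the 3 arms. Without the fold minimum, 2 of the 10 passed in the average, *Arntl* and *Cry1*, against 24.6% of all genes, so the share among the core genes was near the background. The median log2 fold change of the 10 was -0.0039 in that average and -0.02 over all genes tested. The O2 groups did not overlap for 3 of the 10 in Ctrl TFs, 3 in cKO TFs and 2 in gesicle-treated TFs, against 29.8%, 19.9% and 24.2% of all genes. *Arntl* was the one member whose O2 groups stood apart in the same direction in all 3 arms, as did 6.75% of all genes. Some genes listed as markers of other cell types moved with O2 as well in the averaged edgeR comparison. Lower were 2 of the 5 endothelial markers, *Tek* (-0.94) and *Kdr* (-4.01), and the summed level of the 5 was 25.6 to 75.7 CPM in 20% O2 and 11.4 to 40.3 CPM in 1% O2. *Kdr* stayed at or under 0.643 CPM, and *Tek*, at 11.3 to 75.6 CPM, made up most of that sum. Higher were 1 of the 5 pericyte and smooth muscle markers, *Rgs5* (0.73), 1 of the 4 chondrocyte markers, *Comp* (0.62), and 1 of the 5 macrophage and leukocyte markers, *Cd14* (0.41). No other gene of these 3 lists passed. The median log2 fold change was -0.111 over the pericyte, 0.0806 over the chondrocyte and -0.425 over the leukocyte genes tested, so none of these lists rose as its named gene did. The pericyte list summed to 1049 to 2355 CPM in 20% and 1288 to 2125 CPM in 1% O2, the chondrocyte list to 208 to 587 and 307 to 920 CPM, and the leukocyte list to 7.94 to 16.4 and 10.2 to 17.8 CPM. Single genes made up most of these sums, *Acta2* at 971 to 2056 CPM, *Comp* at 182 to 893 CPM and *Cd14* at 6.27 to 16.0 CPM over all libraries. The sums thus say little about the other genes of each list. The part of the listed markers in the clock gene differences was not tested, and in bulk samples fewer cells of a type and less RNA per cell cannot be told apart.

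Between genotypes, *Clock* and *Cry2* were lower in cKO than in Ctrl TFs at both O2 levels with no overlap of groups, where 8.38% of all genes were apart in 1 direction at both levels, and the other 8 genes did not pass in the average over O2. In 20% O2 alone these 2 of 10 were apart, against 20.8% of all genes. By the values given for *Clock*, the highest cKO library had 55.0 CPM in 20% O2, below the lowest Ctrl library at 58.5 CPM, and in 1% O2 the highest cKO library had 23.8 CPM against a lowest Ctrl value of 29.2 CPM. For *Cry2*, cKO TFs had 65.9, 52.01 and 60.4 CPM in 20% O2 and 44.6, 68.5 and 71.9 CPM in 1% O2. In 20% O2 its groups were apart by a hair, with 65.9173 CPM in the highest cKO and 65.9178 CPM in the lowest Ctrl library. Averaged over O2, *Clock* differed by -0.89 on the log2 scale (SE 0.23, 1.86-fold, edgeR adjusted p = 0.046), which was a call, and *Cry2* by -0.49 (SE 0.12, 1.40-fold, adjusted p = 0.0455), which was under the fold minimum. This fit took its 12 libraries as independent. Same-numbered Ctrl libraries in 20% and 1% O2 deviated alike from their group means (r 0.364 to 0.664). Where 1 mouse gave both, these SE and p values can be too small. *Cry2* passed the adjusted p in 6 of 19 alternatives, namely DESeq2, RLE size factors, no low-count filter, all 18 libraries in 1 fit, and the fits without Ctrl 20% O2 replicate 2 or cKO 20% O2 replicate 1.

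The *Clock* call was lost when any of 10 of the 12 libraries was left out, and kept only without Ctrl 1% O2 replicate 1 or cKO 20% O2 replicate 1. The length and GC index was lower in cKO than in Ctrl TFs, with group means of 0.26 in Ctrl and -0.12 in cKO TFs in 20% O2 and of 0.07 and -0.26 in 1% O2. With GC and length offsets the *Clock* difference was -0.59 (adjusted p = 0.0259) and that of *Cry2* -0.26 (adjusted p = 0.155). The part of the index in these differences was not tested further. Of the marker lists, 3 of the 5 pericyte and smooth muscle genes were also lower in cKO TFs, *Rgs5*, *Cspg4* and *Myh11*, with edgeR log2 fold changes of -0.77, -1.46 and -1.39, while the summed level of the 5 was 1288 to 2355 CPM in untreated Ctrl and 1049 to 1752 CPM in cKO libraries. *Acta2*, at 971 to 2056 CPM over all libraries, made up most of that sum. The part of these markers here was not tested.

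**Figure D4:**
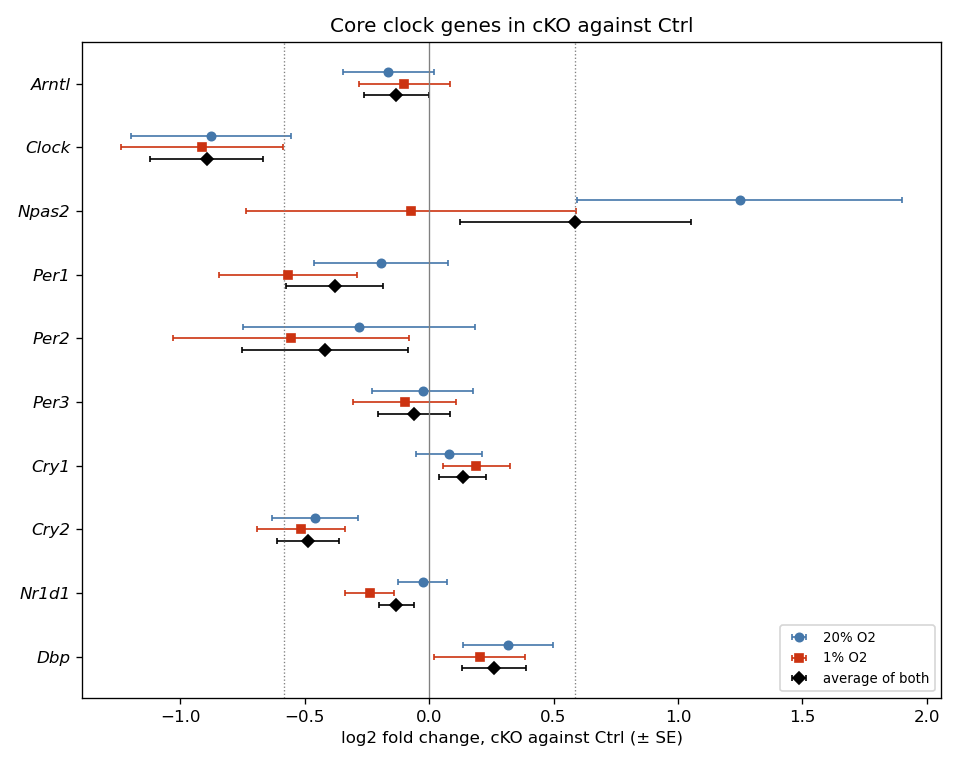
Log2 fold change of each core clock gene in cKO against Ctrl TFs (x axis, ± SE from edgeR) in 20% O2, in 1% O2 and averaged over both, with dotted lines at a 1.5-fold change. *Clock* and *Cry2* lie to the left of 0 at both O2 levels, and *Npas2* has the widest errors.

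At single O2 levels no core gene was called between genotypes, where 0.347% of all genes were called in 20% O2 and 0.0379% in 1% O2. In the average of both levels 1 of 10 was called against 3.78% of all genes, and 2 of 10 passed without the fold minimum against 5.19%. In 1% O2, groups did not overlap for 5 of the 10 genes, lower in cKO for *Clock*, *Per1*, *Cry2* and *Nr1d1* and higher for *Dbp*, against 26.5% of all genes. The smallest adjusted p among the 10 in 1% O2 was 0.226, for *Cry2*. The interaction of genotype and O2 called no core gene and 0% of all genes with edgeR, with no core gene and 2.32% of all genes at an unadjusted p under 0.05, and DESeq2 called 2 genes, neither of them a core gene.

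No core gene differed detectably with Cre gesicles in 3 against 3 libraries. None of the 10 was called in gesicle-treated against untreated Ctrl TFs, in which 0.0247% of all genes were called in 20% O2 and 0% in 1% O2, and the interaction of gesicles and O2 called 0%. No core gene reached an unadjusted p under 0.05 in these 3 edgeR comparisons, against 3.67%, 2% and 1.5% of all genes. The differences of *Arntl* were -0.0048 (SE 0.17) in 20% O2 and -0.12 (SE 0.17) in 1% O2, and those of *Cry1* were 0.10 (SE 0.12) and 0.08 (SE 0.12). The untreated Ctrl libraries served both here and in the genotype comparison.

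Among 10 further genes of the second loop and the D-box factors, 6 passed the adjusted p in the averaged O2 comparison, 3 in each direction, with *Nfil3* and *Bhlhe41* called. Of all genes, 24.6% passed the adjusted p and 10.5% were called in this comparison. *Nfil3*, whose product E4BP4 represses the D-box genes that DBP activates, was at 11.8, 11.6 and 8.64 CPM in Ctrl TFs in 20% O2 and at 11.3, 15.8 and 14.8 CPM in 1% O2. In cKO TFs it went from 7.83, 9.86 and 9.06 CPM to 12.6, 16.8 and 20.9 CPM, a rise of 0.91 (SE 0.21, edgeR adjusted p = 0.0453) that was a call. Its averaged rise was 0.60 (SE 0.12, adjusted p = 0.0029), just over the fold minimum, so that it passed the adjusted p in all 25 alternatives but the fold minimum in 15.

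*Bhlhe41*, whose product DEC2 competes for E-boxes, fell by 0.68 (SE 0.17, edgeR adjusted p = 0.0082), from 2.12 to 5.27 CPM over the 9 libraries in 20% O2 to 1.43 to 3.56 CPM in 1% O2, ranges that overlapped. The call was lost with GC and length offsets (-0.45, adjusted p = 0.0748). Its close relative *Bhlhe40*, at 73.1 to 133 CPM, differed by -0.04 (SE 0.11).

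*Ciart*, the CHRONO gene with 3 E-boxes in the window above, was at 6.69, 4.78 and 6.96 CPM in Ctrl TFs in 20% O2 and at 4.47, 4.73 and 4.57 CPM in 1% O2. cKO TFs had 5.10, 6.33 and 5.47 CPM against 4.38, 4.90 and 4.43 CPM, and gesicle-treated TFs 6.32, 6.23 and 6.62 CPM against 4.19, 4.07 and 4.59 CPM. The groups stood apart in all 3 arms, in the opposite direction to *Arntl*. The averaged fall was -0.44 (SE 0.09, 1.35-fold, edgeR adjusted p = 0.0034), past the adjusted p in all 25 alternatives and under the fold minimum.

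*Arntl2*, the *Arntl* paralog, rose by 0.41 (SE 0.10, edgeR adjusted p = 0.00995), and *Rora*, whose receptor activates *Arntl* transcription, by 0.33 (SE 0.07, adjusted p = 0.0048). Both passed in all 25 alternatives. With GC and length offsets the rise of *Rora*, whose longest transcript has 10878 bases at 40.9% GC, was 0.65. *Tef*, a D-box activator like DBP, fell by 0.31 (SE 0.09, adjusted p = 0.02), and by 0.16 with the offsets. *Nr1d2* (0.03, SE 0.11), *Rorb* and *Hlf* did not pass, though *Nr1d2* did with the offsets (0.18, adjusted p = 0.0362), and *Hlf* was at or below 1.64 CPM.

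**Figure D5:**
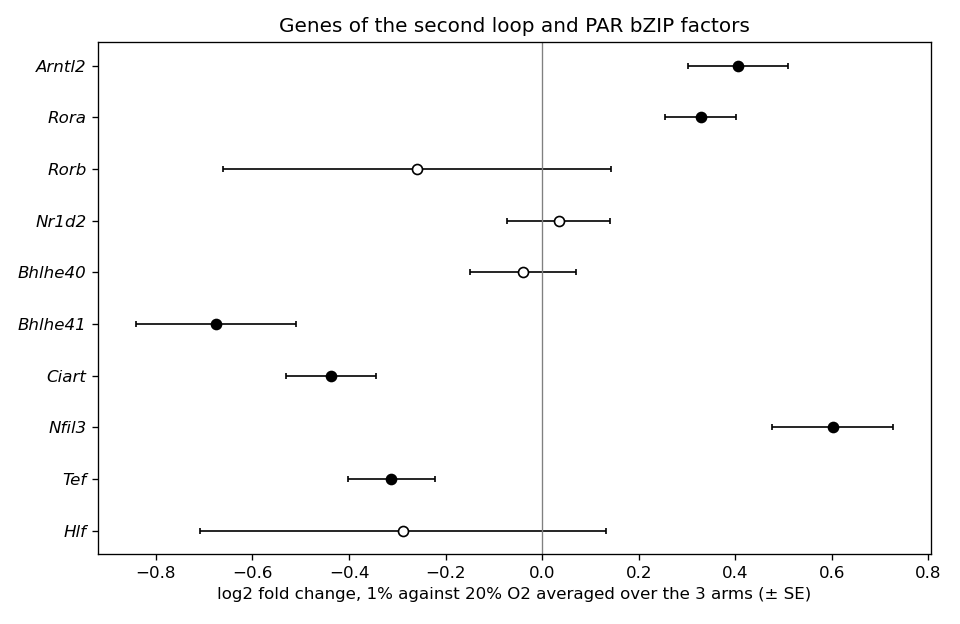
Log2 fold change in 1% against 20% O2 averaged over the 3 arms (x axis, ± SE from edgeR) for 10 further clock genes, filled where the adjusted p was under 0.05. *Arntl2*, *Rora* and *Nfil3* lie to the right of 0 and *Bhlhe41*, *Ciart* and *Tef* to the left.

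The 10 kinases and ubiquitin ligases that modify PER and CRY proteins held no gene that passed in the averaged O2 comparison, and neither did 7 clock output genes. In this comparison 24.6% of all genes passed, which is the background for the counts in these short lists. Of 10 immediate early genes that respond to serum and cAMP, *Nr4a1* alone passed, lower in 1% O2 (-1.37, SE 0.11, edgeR adjusted p = 8.72e-07). Of 6 glucocorticoid-inducible genes tested, *Dusp1* alone passed, and it was higher (0.48, SE 0.16, adjusted p = 0.0434).

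Among 12823 other genes with a mean of at least 1 CPM, those most like *Arntl* across the 18 libraries, by Pearson correlation of log2 CPM, were *Heph* (r 0.946), *Etfdh* (r 0.945) and *Sec63* (r 0.934). For *Nr1d1* they were *C030006K11Rik* (r 0.822), *Dpf2* (r 0.785) and *Gm49380* (r 0.767), and for *Dbp* they were *H2-Ke6* (r 0.91), *Mob2* (r 0.904) and *Cd81* (r 0.902). None of the other core clock genes was among them. These libraries share O2 groups and base composition, so the correlations describe likeness only.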

How the data were processed

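Poly-A RNA was sequenced in 18 libraries of mouse tail TFs. Per the labels and methods, the authors trimmed reads with cutadapt, ran STAR on GRCm38 and obtained gene counts from RSEM 1.3.3. The deposited values are these expected counts, without normalization, for 55491 rows, and they were rounded to whole numbers here before use. Of these rows, 4 name no Ensembl gene and were not removed before the low-count filter. Strand is not given in the sources used here. The core genes and the other gene lists were chosen with earlier results of these data known. Every one of the 10 core genes is named, and genes of the other lists are named where they passed the adjusted p or complete a list. A gene of the second-loop list is not reported here.

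After filterByExpr, the quasi-likelihood F test of edgeR 4.0.16 with TMM factors and a coefficient for each group was applied in a fit of 12 libraries for genotype and O2 (15850 genes) and a fit of all 18 for gesicles and for O2 averaged over 3 arms (16174 genes). A call was a Benjamini-Hochberg adjusted p under 0.05 over all genes tested and a fold change of at least 1.5. An SE is the log2 fold change over the square root of F. Levels are CPM with TMM scaling over all 18 libraries, and correlations used log2(CPM + 0.5). Positions came from GENCODE M21 on GRCm38. In simulated counts for the Ctrl O2 comparison (15850 genes), edgeR found 98 of 200 changed genes with 2 false, and 2 of 50 changed by 1.5-fold. In those for the averaged comparison (16174 genes), it found 176 of 200 with 5 false, and 33 of 50 changed by 1.5-fold. The changed genes had a mean of at least 5 CPM, above the means of *Per1* and *Npas2*. They counted as found at an adjusted p under 0.05 without the fold minimum, and the simulated libraries were independent of one another. The floor of 3 counts covers counting error only.

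Replicate numbers are in the labels but are not said there to mark a mouse. Deviations from group means of same-numbered Ctrl libraries in 20% and 1% O2 correlated at 0.364 to 0.664. Those of untreated and gesicle-treated Ctrl libraries correlated at 0.438 to 0.645 in 20% O2 and at 0.272 to 0.397 in 1% O2. Numbers were thus read as pairing these. Gesicle-treated libraries in 20% and 1% O2 (-0.155 to 0.27) and cKO libraries in 20% and 1% O2 (0.0143 to 0.513) did not meet the minimum of 0.1 for every pair. Alternatives were DESeq2 1.42.0, RLE size factors, no low-count filter, replicate blocks, all 18 libraries in 1 fit, no fold minimum, each library left out, and, chosen after the data were seen, GC and length offsets (splines with 4 degrees of freedom) and a block within genotype. R 4.3.3, limma 3.58.1, Python and matplotlib were also used.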

Additional observations from a re-analysis of the deposited data

How the results depend on the processing

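In 1% against 20% O2 averaged over the arms, *Arntl* and *Cry1* kept their direction under each alternative, and 2 core genes passed with no fold minimum. In cKO TFs, DESeq2 called 1 core gene (*Arntl*) in 1% against 20% O2, as did GC and length offsets with the replicate block (1). Between genotypes averaged over O2, 1 core gene was called, 0 with the replicate block, 0 with all 18 libraries in 1 fit, 2 with no fold minimum and 0 to 1 with a library left out. In 20% O2, leaving out a library gave 0 to 1, the 1 being *Clock* without cKO 20% O2 replicate 1 (adjusted p = 0.0399). Same-numbered cKO and Ctrl libraries did not correlate (-0.191 to -0.0194 in 20% O2), so the numbers do not pair them, and the block moved all calls from 599 to 358. In the comparisons of O2 and of gesicles, the replicate block and the block within genotype, without offsets, changed no core gene's call. *Npas2* averaged over arms ran from -0.25 to 0.19 with a library left out. Of 253 alternative counts of core genes called, 236 kept the main count.

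Over all genes, DESeq2 called 694 against 298 for O2 in Ctrl, 889 against 333 in cKO, 728 against 390 with gesicles, 432 against 55 and 288 against 6 between genotypes in 20% and 1% O2, 1251 against 599 in their average, and 46 against 4 for gesicles in 20% O2. Without the low-count filter the counts for cKO O2, genotype in 20%, in 1% and averaged, and gesicles in 20% O2 were 511, 281, 111, 1190 and 23. With offsets they were 537, 513, 629, 117 and 11 for O2 in Ctrl, cKO and gesicles and genotype in 20% and 1% O2. With offsets and the block they were 519 for O2 in Ctrl, 743 with gesicles, 139 and 17 between genotypes in 20% and 1% O2, and 7 for gesicles in 20% O2. All 18 libraries in 1 fit gave 87 and 14 between genotypes in 20% and 1% O2, where the block gave 2 in 1% O2. The block within genotype gave 774 for O2 with gesicles and 2 for gesicles in 20% O2. Depth limited *Npas2* and, in the shallow library, *Per1* and *Per2*.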
